A study of Mus musculus with 16 samples.

Results

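The T-box genes Tbx2, Tbx3, Tbx4, Tbx15 and Tbx18 and the Iroquois genes Irx1, Irx2, Irx3 and Irx5 were followed through messenger RNA and Ago2-bound RNA of juxtaglomerular (JG) cells given miR-106b. They were taken by gene name as 9 of the 46078 genes in the count table, 5 of them T-box and 4 Iroquois genes. Tbx2 and Irx1 were put in the set because the ratio of their Ago2-bound to their polyA RNA was much lower with miR-106b. Every value of these 2 genes is therefore a description, and no difference between groups was tested for them. The rule names no value of the other 7 genes, and the change of that ratio is given for them without a test as well.

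The JG cells were mouse cells in culture, called engineered in the labels, which carry yellow fluorescent protein under the control of the renin gene (Ren1c-YFP). This reporter is used to mark renin-producing cells of the kidney, and all 16 libraries came from cells with this label. The cells were transfected with a mimic of the microRNA miR-106b-5p or with a nontargeting miRNA control, and RNA was collected 48 h later. For each transfection 4 libraries were made from polyadenylated (polyA) RNA and 4 from RNA bound to immunoprecipitated Ago2 (Ago2-IP). A group is named here by its RNA and its transfection. The 4 replicates of a group are described as biological, without a statement of how many cultures or days they came from.

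T-box factors bind DNA through a shared T domain and set organ and cell identity in the embryo. Tbx2 and Tbx3 are closely related repressors that hold back cell-cycle inhibitors and keep parts of the heart from becoming working muscle. Tbx18 marks progenitors of the ureter, of the sinus node and of mural cells, Tbx15 acts in skeletal and adipose tissue, and Tbx4 in hindlimb and lung mesenchyme. Iroquois factors belong to the TALE class of homeodomain proteins and lie in clusters, with Irx1, Irx2 and Irx4 in one and Irx3, Irx5 and Irx6 in the other. They pattern nephron segments, and Irx3 and Irx5 shape conduction and repolarization in the heart. A miRNA held by an Argonaute protein such as Ago2 pairs through its seed with sites in mRNAs, most often in the 3′ untranslated region (3′UTR), and an mRNA engaged in this way can be recovered with Ago2.

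The sequence of the transfected miRNA decides which sites can be searched for in the members. Mature miR-106b-5p of mouse (RefSeq, GRCm38.p6, chromosome 5 from 138165787 to 138165807 on the minus strand) is shown 5′ to 3′ with its seed, bases 2 to 8, in capitals, and below it the part of the Tbx3 3′UTR that holds the complement of these bases, also in capitals.
miR-106b-5p: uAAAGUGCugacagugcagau
Tbx3 3′UTR: aatctgccagtGCACTTTgttagatgtaa
The stretch of Tbx3 lies on the plus strand at chr5:119683150-119683178 of GRCm38 in the GENCODE annotation, and the match GCACTTT starts at position 69 of a 3′UTR of 1632 bases. Among the 9 genes, Tbx3 was the one whose longest annotated 3′UTR held GCACTTT or CACTTTA (the complement of bases 2 to 7 followed by A), read on the strand of the transcript. For the other 8 genes, including Tbx2 and Irx1, neither motif was in 3′UTRs of 397 bases (Irx3) to 2421 bases (Tbx18). As background, a 3′UTR was annotated for 13222 of the genes tested, and 14.8% of these held GCACTTT and 22.2% held either motif. A match is a sequence and no measured site, and its absence says only that these letters were not in that window.

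The members lie on 6 chromosomes of GRCm38. Tbx2 (ENSMUSG00000000093) spans 85832551 to 85841948 of chromosome 11, and Tbx4 (ENSMUSG00000000094) follows 44474 bases further on, from 85886422 to 85916097. Tbx3 (ENSMUSG00000018604) lies on chromosome 5 from 119670669 to 119684724, Tbx15 (ENSMUSG00000027868) on chromosome 3 from 99240381 to 99354259, and Tbx18 (ENSMUSG00000032419) on chromosome 9 from 87702800 to 87731260. Irx1 (ENSMUSG00000060969, 71957921 to 71963723) and Irx2 (ENSMUSG00000001504, 72628820 to 72634198) share a cluster on chromosome 13, and Irx3 (ENSMUSG00000031734, 91798525 to 91801916) and Irx5 (ENSMUSG00000031737, 92357796 to 92361456) a cluster on chromosome 8. The libraries do not keep the strand. Reads in exon bases shared with antisense genes (115 bases of Tbx3, 970 of Tbx18 and 124 of Irx3) therefore cannot be assigned by strand. Whether such reads were counted for these members or left out was not examined.

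The table holds between 2579086 and 9459585 counts per library, and the polyA control libraries were the deepest (median 6450099, with medians from 3264121.5 to 3645937.5 in the other 3 groups). A count of 0 allows up to 3 counts, which is 0.317 to 1.16 CPM (counts scaled by the total of the library) depending on the library. This covers counting error only, because amplified copies of a molecule were not marked. Ren1, the renin gene that defines JG cells, had 0 counts in all 16 libraries, which goes against the label, and whether the zero comes from the cells or from the way reads were counted was not tested. A list of 25 genes of cardiac muscle was abundant in these cultures, and its summed level differed between the groups. It was 24890 to 35380 CPM in polyA control and 48580 to 84070 CPM in polyA miR-106b. Over the 8 Ago2-IP libraries it was 109300 to 120000 CPM. No gene of the list was at 0 in all 16 libraries together. The list of JG and mural cells, Ren1 included, summed to 2472 to 5467 CPM over all libraries. Fibroblast (8 of 8 genes), endothelial (8 of 8) and macrophage (6 of 7) markers were likewise higher in polyA RNA with miR-106b and higher in Ago2-IP than in polyA RNA of control cells (edgeR, adjusted p under 0.05), as were 6 and 7 of 9 tested genes of JG and mural cells (1 and 2 were lower). Of 7 kidney epithelium markers 1 was abundant enough to be tested, and it was lower in both contrasts. A list of 10 proliferation genes went the other way, from 587.7 to 862.3 CPM in polyA control to 109.8 to 412.1 CPM in polyA miR-106b and 88.4 to 116.6 CPM over the Ago2-IP libraries. Many T-box and Iroquois genes are themselves expressed in heart and in mesenchyme, and in such bulk RNA fewer cells of a type and less RNA per cell cannot be told apart.

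Of the 9 members, 8 were detected well enough to be compared, and Irx3 was by far the most abundant. On the scale of CPM per kilobase of annotated exon, scaled to library size, Irx3 stood at 19.9 ± 2.44 in polyA control (SD, n = 4 here and in all values below). Irx5, its cluster partner, followed at 9.29 ± 0.227. Tbx15 (6.36 ± 0.503), Tbx3 (5.27 ± 0.630) and Tbx2 (4.64 ± 0.749) came next, and in this order neighbours overlapped in the ranges of their 4 libraries. Tbx18, at 3.38 ± 0.349, lay below every Tbx2 value. Irx1 was low at 1.29 ± 0.201 and Irx2 lower at 0.883 ± 0.145, and every Irx1 library was above every Irx2 library by a narrow margin (lowest Irx1 value 1.073, highest Irx2 value 1.07). Tbx4 had no count in any polyA control library, 1 count in 1 polyA miR-106b library, 1 count in 1 Ago2-IP control library, and 1, 1, 3 and 0 counts in the Ago2-IP miR-106b libraries, which is at or under the 3 counts that a zero allows. It was the member that did not pass the filter on low counts (at least 1 CPM in 3 of the 4 libraries of some group), and nothing further can be said of it at this depth.

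**Figure D1:**
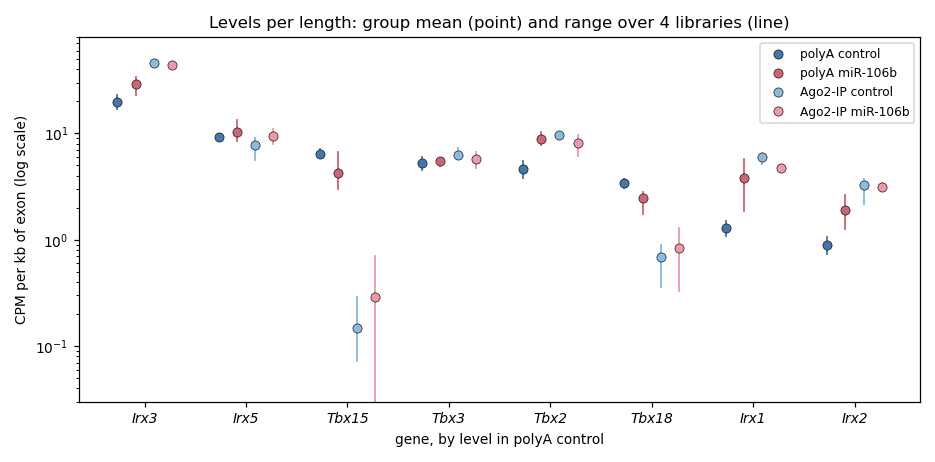
Level of the 8 detected members in CPM per kilobase of exon (vertical axis, log scale, scaled to library size), with the members ordered along the horizontal axis by their level in polyA control, the group mean as a point and the range over 4 libraries as a line (a line that leaves the lower edge reaches 0). Irx3 is highest in every group, and Tbx15 and Tbx18 are far lower in both Ago2-IP groups than in the polyA groups.

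In Ago2-IP RNA of control cells the order was different. Irx3 was again highest, at 45.9 ± 1.90 CPM per kilobase, and Tbx2 (9.54 ± 0.369) now stood above Irx5 (7.79 ± 1.51) and Tbx3 (6.24 ± 0.717) in its mean, although the ranges of Tbx2 and Irx5 and those of Irx5 and Tbx3 overlapped. Irx1 was at 5.94 ± 0.604 and overlapped Tbx3. Tbx18 was at 0.688 ± 0.243 and Tbx15 last of the 8 at 0.147 ± 0.101. Ranks between genes rest on annotated exon lengths and carry no test.

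How far Ago2-IP and polyA RNA differ in control cells was asked first, since this difference is the base from which the ratio with miR-106b is read. Among the 6 testable members (Tbx3, Tbx15, Tbx18, Irx2, Irx3 and Irx5), Tbx3, Irx2 and Irx3 were higher in Ago2-IP RNA, Tbx15 and Tbx18 were lower, and Irx5 did not pass the test. This is 5 of 6, where 69.7% of all 14897 genes tested passed in either direction, 35.1% higher and 34.6% lower, so the share called is near that of all genes with 6 members to count. The same 5 members had groups without overlap, against 66.8% of all genes (33% with Ago2-IP higher and 33.7% lower). The values here are CPM scaled by the trimmed mean of M values (TMM) over all 16 libraries, and p-values come from edgeR's quasi-likelihood test, adjusted after Benjamini-Hochberg over the 14897 genes.

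Tbx15, the regulator of skeletal and adipose tissue, was nearly absent from Ago2-IP RNA. It had 151, 250, 149 and 127 counts in polyA control replicates 1 to 4 and 1, 2, 1 and 5 counts in the Ago2-IP control replicates. That is 20.9 ± 1.62 CPM against 0.600 ± 0.413 CPM, without overlap. The level in Ago2-IP RNA was 31.6-fold lower, a log2 difference of -4.98 (SE 0.430, edgeR adjusted p = 6.65e-10), and 0.45% of all genes tested had a lower value. Without Ago2-IP control replicate 4, which held 5 of the 9 counts of its group, the log2 difference was -5.60, so the size of this fold rests on very few counts. Tbx18, a marker of mural and sinus node progenitors, had 108, 137, 116 and 83 counts in polyA control and 6, 15, 15 and 14 counts in Ago2-IP control. Its groups did not overlap either, with 14.0 ± 1.48 CPM and 3.55 ± 1.26 CPM, and the log2 difference was -1.97 (SE 0.296, edgeR adjusted p = 2.63e-06).

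The Iroquois genes Irx2 and Irx3 stood on the other side. Irx2 had 19, 25, 16 and 20 counts in polyA control and 43, 44, 26 and 54 counts in the shallower Ago2-IP control libraries. Its level was 2.54 ± 0.415 CPM in polyA and 11.8 ± 2.80 CPM in Ago2-IP RNA, a log2 difference of 2.22 (SE 0.255, edgeR adjusted p = 3.95e-08). Irx3, with 48.0 ± 5.91 CPM in polyA and 138.5 ± 6.0 CPM in Ago2-IP RNA, differed by 1.53 (SE 0.113, edgeR adjusted p = 2.12e-11). Every Ago2-IP control library was above every polyA control library for both genes. Tbx3 was higher by 0.56 (SE 0.124, edgeR adjusted p = 0.000310), from 30.6 ± 3.66 CPM to 45.2 ± 5.20 CPM, also without overlap. Irx5 differed from its neighbour Irx3: it had 25.4 ± 0.613 CPM in polyA and 26.6 ± 5.12 CPM in Ago2-IP RNA, its groups overlapped, and the log2 difference was 0.07 (approximate 95% interval -0.24 to 0.38, edgeR adjusted p = 0.709).

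The genes that were chosen by their ratio are described here without a test. Tbx2 had 14.7 ± 2.38 CPM in polyA control and 37.8 ± 1.54 CPM in Ago2-IP control, a log2 difference of 1.37 (SE 0.152). Irx1 had 2.95 ± 0.471 CPM and 17.0 ± 1.80 CPM, a log2 difference of 2.52 (SE 0.240), and 98.1% of genes tested had a lower value. Both lay on the same side as Irx2 and Irx3. The cardiac list, at a median log2 difference of 2.29 with 23 of its 24 tested genes higher, and the proliferation list, at -2.73 with 10 of 10 lower, moved in this contrast as well, and their part in the values of the members was not tested.

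Scaling moved several values of this contrast. With library size alone in place of TMM the median over all genes moved from -0.03 to -0.35 and the share of calls that were higher from 50.3% to 37.9%. Tbx3 was then at 0.25 (edgeR adjusted p = 0.0766) and Irx5 at -0.25, so Tbx3 lost its call and Irx5 turned its direction, while the calls of Tbx15, Tbx18, Irx2 and Irx3 held.

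**Figure D2:**
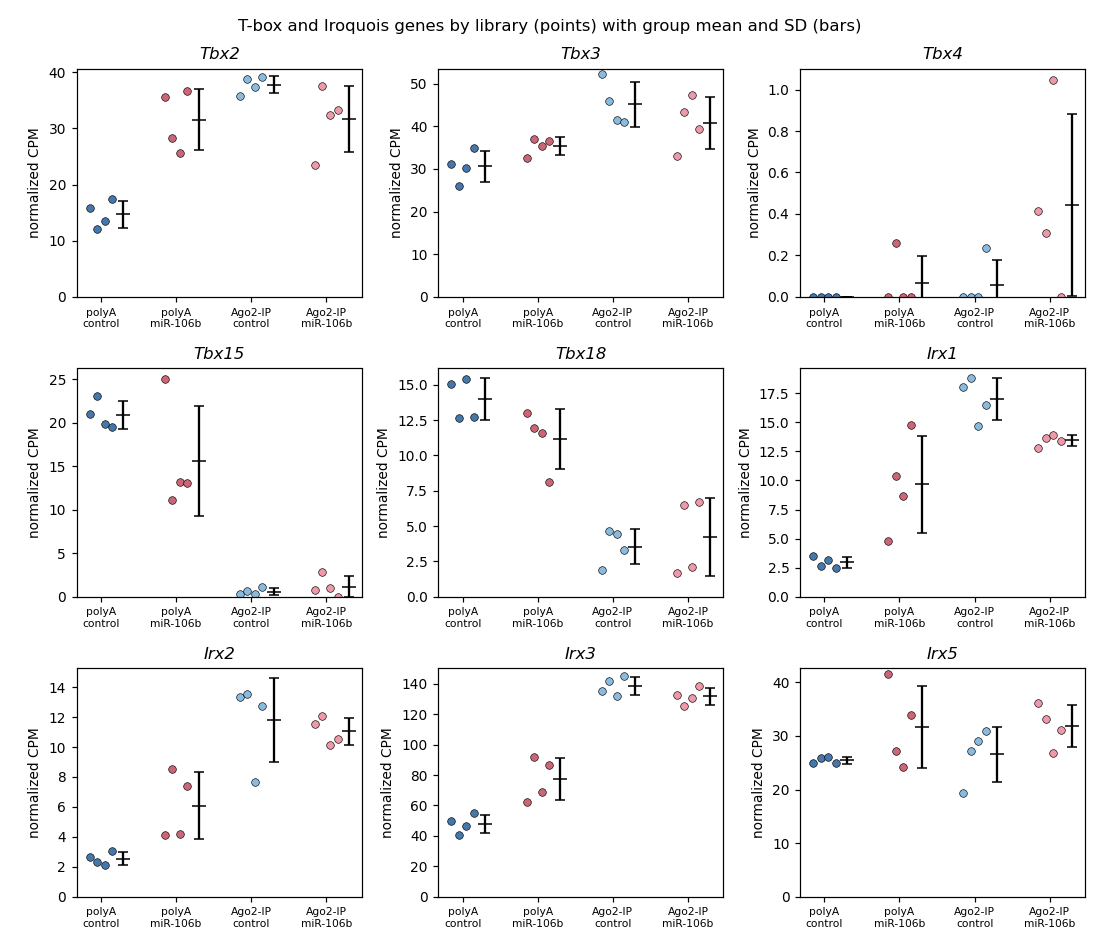
Normalized CPM (TMM over 16 libraries, linear axes from 0) of each member in each library (points), with the group mean and SD (bars, n = 4) beside them. Tbx2 and Irx1 are higher in polyA RNA with miR-106b than in polyA control in every library, while Tbx4 stays at or near 0 in all of them.

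The next comparison asked what miR-106b does to the abundance of the members in polyA RNA. Irx2 and Irx3 were higher with miR-106b. The T-box genes had no common direction, with lower means for Tbx15 and Tbx18 and nearly the same level for Tbx3, and none of these 3 passed. Thus 2 of the 6 testable members passed, both higher, where 40.5% of all genes tested passed, 19% higher and 21.5% lower. The values are CPM scaled by TMM within the 8 polyA libraries.

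Irx3 had 56.5, 46.2, 52.5 and 62.3 CPM in polyA control replicates 1 to 4 and 63.9, 94.8, 72.2 and 90.7 CPM in the miR-106b replicates. The lowest miR-106b library was just above the highest control library, and replicates 2 and 4 were highest. The log2 difference was 0.56 (SE 0.145, edgeR adjusted p = 0.00830), a 1.48-fold rise. Irx2, which lies in the cluster of Irx1, had 3.0, 2.62, 2.39 and 3.49 CPM in control and 4.25, 8.81, 4.41 and 7.77 CPM with miR-106b, from 16 to 33 counts per library. It rose by 1.12 (SE 0.302, edgeR adjusted p = 0.0106), or 2.17-fold, and the groups did not overlap. Irx5 had 28.3, 29.3, 29.3 and 28.3 CPM in control, the tightest group of any member, and 42.7, 28.0, 25.3 and 35.5 CPM with miR-106b, which overlapped it on both sides (log2 difference 0.19, approximate 95% interval -0.11 to 0.50, edgeR adjusted p = 0.348).

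Tbx15 had 23.8, 26.2, 22.3 and 22.2 CPM in control and 25.7, 11.5, 13.8 and 13.7 CPM with miR-106b. Replicate 1 of miR-106b was inside the control range and the other 3 libraries were well below it. The log2 difference was -0.53 (SE 0.217, edgeR adjusted p = 0.0686), and without that replicate it was -0.79 with an adjusted p of 0.00112, past the threshold. The call also turned with no filter on low counts (edgeR adjusted p = 0.0297) and with a replicate block over all 8 libraries (edgeR adjusted p = 0.0474). Tbx18 had 17.0, 14.3, 17.4 and 14.5 CPM in control and 13.4, 12.3, 12.1 and 8.52 CPM with miR-106b. Its groups did not overlap, yet the log2 difference of -0.43 (SE 0.173, edgeR adjusted p = 0.0639) was not past the threshold. Groups without overlap were found for 3 of the 6 testable members (Irx2 and Irx3 higher, Tbx18 lower) and for 38.3% of all genes tested, 16.7% higher and 21.6% lower.

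Tbx3, the member with the seed match, had 35.4, 29.4, 34.1 and 39.6 CPM in control and 33.5, 38.2, 36.9 and 38.5 CPM with miR-106b. All miR-106b values lay within the control range, and the log2 difference was 0.09 (approximate 95% interval -0.16 to 0.33, edgeR adjusted p = 0.605). Tbx2, its closest relative, had 17.8, 13.7, 15.3 and 19.9 CPM in control and 36.6, 29.1, 26.7 and 38.5 CPM with miR-106b. Every miR-106b library of Tbx2 was above every control library, and the log2 difference was 0.98 (SE 0.166). Irx1 had 3.95, 3.04, 3.59 and 2.79 CPM in control and 4.92, 10.7, 9.09 and 15.6 CPM with miR-106b, a log2 difference of 1.55 (SE 0.315) with no overlap. Replicate 1 was lowest and replicate 4 highest, and the coefficient of variation of 43.7% over these 4 libraries was above the 17.1% that counting alone gives.

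The spread among the polyA miR-106b libraries ran through several members. Replicate 1, with the lowest sum of the 25 cardiac genes (48580 CPM), had the lowest Irx1 and Irx3 and the highest Tbx15 and Tbx18 of its group. It also had the highest Irx5 (42.7 CPM), a Tbx2 level above those of replicates 2 and 3, and the highest sum of fibroblast markers (27090 CPM). Replicates 2 and 4, with 84070 and 81390 CPM, had the highest Irx1, Irx2 and Irx3 values, and replicate 3, at 60790 CPM, lay between replicate 1 and these libraries in its cardiac sum. In this comparison the cardiac list had 23 of 24 tested genes higher, at a median log2 difference of 1.23, and the proliferation list 10 of 10 lower at -1.84. Their part in the differences of Irx2, Irx3, Tbx15 and Tbx18 was not tested.

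**Figure D3:**
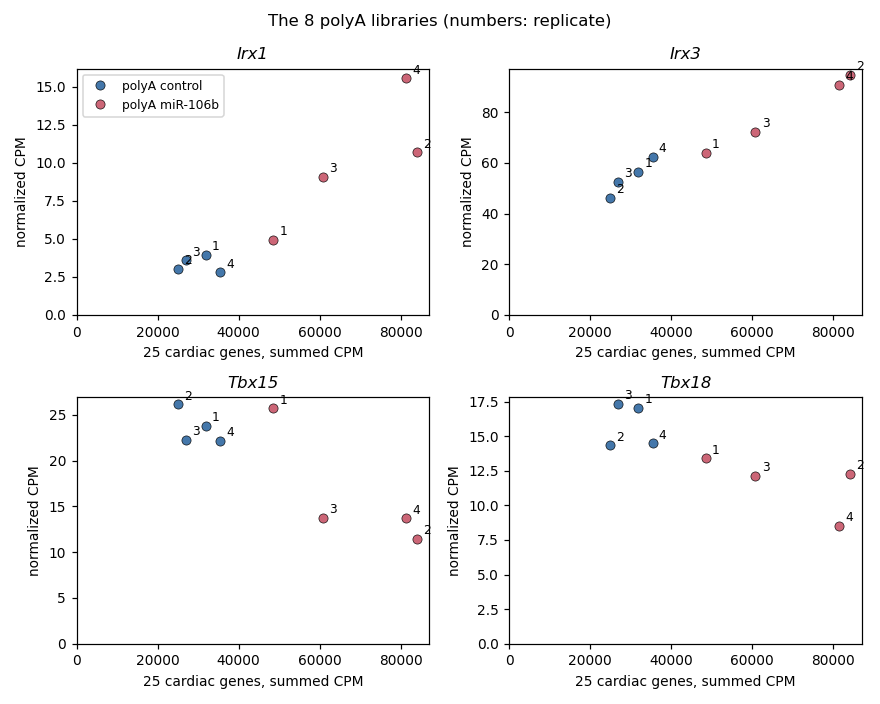
Irx1, Irx3, Tbx15 and Tbx18 (normalized CPM within polyA RNA, vertical axes from 0) against the summed CPM of 25 cardiac genes (CPM, horizontal axis) in the 8 polyA libraries, numbered by replicate. The miR-106b libraries lie to the right of the control libraries in each panel, with Irx1 and Irx3 higher and Tbx18 lower there, and Tbx15 of miR-106b replicate 1 among the control values.

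With all 16 libraries in 1 fit, 61.4% of the polyA calls over all genes were higher, against 47.0% in the fit of the polyA libraries alone, and the share was 60.0% to 60.3% without polyA control replicate 1, 2 or 3. Irx2 and Irx3 kept their direction and their call in all of these fits.

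In Ago2-IP RNA the comparison of the transfections gave no call among the members. None of the 6 testable members passed, where 0% of all genes tested did so with edgeR, and none of the 6 had an unadjusted p under 0.05 against 5.55% (827) of all genes. Groups without overlap were found for none of the 6 and for 3.26% of all genes, 1.56% higher and 1.7% lower. DESeq2 called 2 genes in all and no member. Irx3 had 123.8, 128.7, 120.4 and 134.3 CPM (TMM within the Ago2-IP libraries) in control and 124.8, 117.9, 120.8 and 126.3 CPM with miR-106b. These values overlapped closely, with a log2 difference of -0.05 (approximate 95% interval -0.18 to 0.07, edgeR adjusted p = 0.955). Irx2 had 12.2, 12.3, 6.99 and 11.8 CPM in control and 10.8, 11.4, 9.35 and 9.60 CPM with miR-106b, where control replicate 3 stood apart from its group (log2 difference -0.07, edgeR adjusted p = 0.990). Irx5 had 17.6, 24.6, 26.6 and 28.6 CPM in control and 34.1, 31.2, 24.8 and 28.2 CPM with miR-106b, a log2 difference of 0.27 (approximate 95% interval -0.01 to 0.54, edgeR adjusted p = 0.888).

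Tbx3 had 47.8, 41.6, 37.9 and 38.0 CPM in Ago2-IP control and 31.0, 40.9, 43.8 and 35.8 CPM with miR-106b. The groups overlapped, and the log2 difference of -0.12 (approximate 95% interval -0.34 to 0.10, edgeR adjusted p = 0.944) was the value for the member that carries GCACTTT in its 3′UTR. Tbx15 and Tbx18 were too low in Ago2-IP RNA for a difference of moderate size to be detected. Tbx15 had 1, 2, 1 and 5 counts in control and 2, 9, 3 and 0 counts with miR-106b, and its interval ran from -0.67 to 2.47. Tbx18 had 6, 15, 15 and 14 counts in control and 4, 21, 6 and 21 counts with miR-106b, with an interval from -0.47 to 1.10.

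For the genes chosen by the ratio, Ago2-IP RNA is described without a test. Irx1 had 16.5, 17.0, 13.4 and 15.3 CPM in control and 12.0, 12.8, 12.9 and 12.2 CPM with miR-106b. Every miR-106b library was below every control library, and the log2 difference was -0.31 (SE 0.179). Tbx2 had 32.7, 35.2, 34.1 and 36.3 CPM in control and 22.1, 35.3, 30.0 and 30.3 CPM with miR-106b. Its groups overlapped through miR-106b replicate 2, and the log2 difference was -0.22 (SE 0.126).

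**Figure D4:**
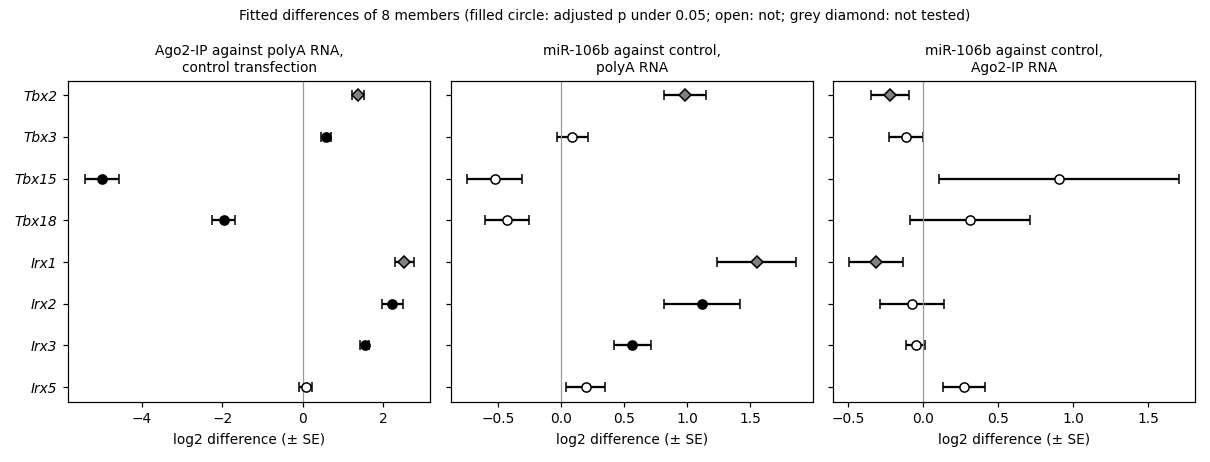
Fitted log2 difference with its SE (horizontal axes, each panel on its own scale) of the 8 detected members in control cells between Ago2-IP and polyA RNA (left), and between miR-106b and control in polyA RNA (middle) and in Ago2-IP RNA (right). Filled circles mark genes past the threshold of 0.05 on edgeR's adjusted p, open circles those not past it, and grey diamonds the untested Tbx2 and Irx1; the right panel holds no filled circle.

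The ratio of Ago2-IP to polyA RNA chose Tbx2 and Irx1, so its change with miR-106b is given for all 8 detected members as a description. On the log2 scale it was -1.35 (SE 0.216) for Tbx2 and -1.999 (SE 0.339) for Irx1. Of all genes tested, 7.95% had a lower value than Tbx2 and 0.94% a lower value than Irx1. Irx2 lay at the edge of this choice, with -1.34 (SE 0.363), a value nearly equal to that of Tbx2. Irx3 followed at -0.76 (SE 0.158) and Tbx3 at -0.35 (SE 0.180), Irx5 was at -0.07 (SE 0.226), and Tbx18 at 0.61 (SE 0.444) and Tbx15 at 1.29 (SE 0.786) were on the other side, both with few Ago2-IP counts. With library size only in place of TMM, Tbx3 was at -0.19, Irx3 at -0.59 and Irx5 at 0.10, and Irx5 was also above 0 with TMM within each RNA kind (0.08). Of the 6 detected members not chosen by this value, Irx2 alone was at least 2-fold lower, where 15.4% of all genes tested were, and nothing is read from this count. The value of Tbx15 was 0.31 without Ago2-IP miR-106b replicate 2, the library with 9 of its 14 counts in that group, and that of Tbx18 was 0.32 without Ago2-IP miR-106b replicate 4.

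The ratio combines a change in polyA RNA with a change in Ago2-IP RNA, and the levels show the size of each. For Irx1 the polyA level went from 3.34 ± 0.523 to 10.1 ± 4.39 CPM and the Ago2-IP level went from 15.6 ± 1.60 to 12.5 ± 0.441 CPM. For Tbx2 the polyA level went from 16.7 ± 2.74 to 32.7 ± 5.72 CPM and the Ago2-IP level from 34.6 ± 1.51 to 29.4 ± 5.46 CPM. In Irx2 and Irx3 the Ago2-IP groups overlapped and the polyA groups did not, as given above. The contrast of Ago2-IP with polyA RNA in control cells and the contrast of miR-106b with control in polyA RNA share the polyA control libraries, so their values are not independent. Side by side, in this order, the log2 differences were 2.52 and 1.55 for Irx1, 2.22 and 1.12 for Irx2, 1.53 and 0.56 for Irx3, 1.37 and 0.98 for Tbx2, 0.56 and 0.09 for Tbx3, 0.07 and 0.19 for Irx5, -1.97 and -0.43 for Tbx18 and -4.98 and -0.53 for Tbx15.

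The remaining T-box and Iroquois genes give the background of the families. Of 14 such genes 6 were tested, and the other 8 had 3 to 33 counts in all libraries together. In polyA RNA 3 of the 6 were higher with miR-106b and Mga was lower, beside 19% and 21.5% of all genes tested, with a median log2 difference of 0.89 against -0.05 over all genes. Irx4, the ventricular Iroquois gene of the Irx1 and Irx2 cluster, rose from 23.8 ± 5.71 to 57.6 ± 16.4 CPM (log2 difference 1.28, edgeR adjusted p = 0.000841). Tbx5, the cardiac activator next to Tbx3 on chromosome 5, rose from 13.7 ± 3.89 to 30.3 ± 8.23 CPM (1.15, edgeR adjusted p = 0.00203). Mga, a T-box protein that also pairs with MAX, fell by 0.49 on the log2 scale (edgeR adjusted p = 0.0133). In Ago2-IP RNA none of the 6 passed with miR-106b. Between Ago2-IP and polyA RNA of control cells 4 were higher, Tbx5 (2.28) and Irx4 (2.21) most, and Mga was lower at -1.18, with a median of 1.86. Of all genes tested 35.1% were higher and 34.6% lower in that contrast.

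Iroquois proteins share the TALE homeodomain with 12 further factors, and all 12 were tested. In polyA RNA with miR-106b Pknox2 (0.85) and Meis1 (0.68) rose and Mkx (-0.77) and Tgif1 (-0.72) fell, that is 4 of 12 against 40.5% of all genes tested, with a median of -0.25. Between Ago2-IP and polyA RNA of control cells 2 were higher, Meis1 (1.38) and Pknox2 (0.74), and 8 were lower, Mkx (-3.48) and Pbx4 (-2.80) most, with a median of -0.89. These are 10 of 12, where 69.7% of all genes tested were called and 34.6% were lower. None passed the test with miR-106b in Ago2-IP RNA, where 0% of all genes tested did.

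Genes reported as targets of T-box or Iroquois factors were read as well, 11 of 12 with enough counts. In polyA RNA 6 were higher with miR-106b and 1 was lower, against 19% and 21.5% of all genes tested, with a median of 0.81. Nppa, the natriuretic peptide gene that Tbx2 and Tbx3 repress and that is also in the cardiac list, rose by 1.22 (edgeR adjusted p = 0.00153). Cdkn1a, which encodes the cell-cycle inhibitor p21 and is repressed by Tbx2, fell by 0.60 on the log2 scale (edgeR adjusted p = 0.00128), from 204.2 ± 16.9 to 134.8 ± 12.9 CPM. Nppa and Cdkn1a moved in opposite directions, and whether Tbx2 or miR-106b itself acted on either gene was not tested. None of the 11 passed in Ago2-IP RNA. Between Ago2-IP and polyA RNA of control cells 8 were higher, among them Frzb (2.25), and Cdkn2a (-4.22) and Cdkn1a (-0.85) were lower, against 35.1% and 34.6% of all genes tested.

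Across the 16 libraries the members fell into patterns, given as Pearson correlations of log2 CPM without a test, since the libraries share their groups. Irx1, Irx2 and Irx3 ran closely together (0.944 for Irx1 with Irx2, 0.942 for Irx1 with Irx3 and 0.972 for Irx2 with Irx3). Tbx2 and Tbx3 had 0.792 with each other and 0.809 to 0.867 with Irx1, Irx2 and Irx3. Tbx15 and Tbx18 had 0.832 with each other and negative values with the first 5, down to -0.913 for Tbx15 with Irx3. Irx5 went with none of them, with values from -0.211 to 0.33. Of 10946 genes whose mean level reached 5 CPM, those most like Tbx2 were Gng11 (0.968), Sphk2 (0.962) and Ahdc1 (0.962), and those most like Irx1 were Ccl21a (0.985), Cxcl14 (0.983) and Mgst3 (0.982).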

How the data were processed

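The authors removed ribosomal reads, aligned the single-end, non-strand-specific reads with Tophat2 (2.0.10 in the submitters' processing notes) to GRCm38 transcripts and counted them on genes with HTSeq. The deposited counts are whole numbers per gene and library, not normalized or filtered. Here they were analysed with edgeR 4.0.16 in R 4.3.3: TMM scaling, a robust quasi-likelihood fit without covariates (8 libraries per RNA kind, all 16 for ratios), a 2-sided F test, Benjamini-Hochberg adjustment over 14897 genes with at least 1 CPM in 3 or more of the 4 replicates of any group, a threshold of 0.05 and a prior count of 0.125. SEs and approximate 95% intervals came from the F statistic. DESeq2 1.42.0 was an alternative. The mean depth was 4416774.1 counts. No replicates of a group agreed within sampling noise (lowest chi-square per degree of freedom 1.69). Gene positions are those of the deposited table and of GENCODE M21, whose 3′UTRs and exon lengths were used, and 99.3% of 14853 shared genes overlapped. The members and all lists were chosen with earlier results of these data known. Named genes were all members, the 2 largest called changes each way per list (a single gene among these is left unnamed), and the 3 genes most correlated with Tbx2 and Irx1. Marker sums and CPM per kilobase used library size only.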

Additional observations from a re-analysis of the deposited data

Results flagged for a closer look

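Tbx15 in polyA miR-106b replicate 1, at 25.7 CPM, lay far from the 11.5 to 13.8 CPM of the other 3 libraries of its group. In that library the 25 cardiac genes summed to 48580 CPM, the lowest of the group, and the fibroblast markers to 27090 CPM, the highest; their part was not tested. Irx2 in Ago2-IP control replicate 3, at 6.99 CPM (26 counts), lay far below the 11.8 to 12.3 CPM of the other 3 libraries. Dixon's criterion, which chance alone would meet in about 5% of groups checked, flagged these 2 groups of 4 libraries. Of the 36 groups, Tbx4 in polyA control, polyA miR-106b and Ago2-IP control (0, 1 and 1 counts) was too low to be checked. The change of the Ago2:polyA ratio of Irx1, -1.999 on the log2 scale, stood out because every polyA miR-106b library was above and every Ago2-IP miR-106b library below the control libraries of its kind. Irx1 was chosen by this ratio, and the difference was not tested.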

How the results depend on the processing

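The number of genes called in Ago2-IP RNA, 0 with edgeR, was 20 with no filter on low counts, 2 with DESeq2's Wald test and 1 with a replicate block, and it ranged from 0 to 40 with each library left out in turn (leaving out Ago2-IP miR-106b replicate 4 gave 40, replicate 1 of that group 4, and Ago2-IP control replicate 4 gave 10). No member was called in any of these fits. In polyA RNA the number of members called was 2 or 3, the added gene being Tbx15, which was called with no filter (adjusted p = 0.0297), with a replicate block (adjusted p = 0.0474) and without polyA miR-106b replicate 1 (adjusted p = 0.00112). Over all genes 4123 to 6704 calls were made in polyA RNA and 9750 to 10649 for the ratio in control cells with a library left out. For that ratio 5 members were called in every fit except with library size only, where 4 were. Directions turned for values that passed no test. The log2 difference of Tbx15 in Ago2-IP RNA was -0.048 without Ago2-IP miR-106b replicate 2, the lowest in a range up to 1.49 with each library left out. The log2 difference of Irx5 between Ago2-IP and polyA RNA was -0.25 with library size only, -0.11 with no filter, -0.027 without polyA miR-106b replicate 2 and -0.014 without Ago2-IP control replicate 4, in a range up to 0.19 with each library left out. The causes were not tested. Deviations of libraries with the same replicate number correlated at -0.52 to 0.38. Libraries with different numbers were not compared, so whether the numbers pair libraries was not settled. The replicate block gave 5511 calls in polyA RNA and 10187 for the ratio. Depth limits Tbx4, and Tbx15 and Tbx18 in Ago2-IP RNA.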
